A study of Rattus norvegicus with 6 samples.

Results

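The unfolded protein response genes examined here are the sensors, transcription factors, chaperones and degradation factors of the endoplasmic reticulum (ER). Their probes were taken by gene name from the array, as every non-control probe named for 1 of 34 listed genes. In all, 42 probes for 31 genes were found among 41012 probes, and Xbp1, Ern1 and Derl2 had no probe under their names or accessions. The tissue was synovium from the hind ankle joints of male rats aged 8 weeks with adjuvant arthritis, a model of inflammatory arthritis. All rats had received 0.1 ml of Freund's complete adjuvant by daily i.p. injection for 18 days. The 3 arthritis samples came from rats with the model alone, and the 3 triptolide samples from rats given triptolide, a diterpenoid from Tripterygium wilfordii, at 0.4 mg/kg. Triptolide, or saline in the controls, was given daily for 14 days. Replicates are numbered, but whether each was a separate rat is not in the labels, so the p-values speak only of the spread among these 6 samples, some of which may be technical. The strain is not named in the labels, and healthy rats were not analysed here.

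Secreted and membrane proteins fold in the ER, and synovial fibroblasts, macrophages and plasma cells secrete heavily. When unfolded proteins accumulate, 3 sensors in the ER membrane signal to the nucleus. ATF6 is cut and its free part drives chaperone genes, IRE1 (encoded by Ern1) splices the messenger of the factor XBP1, which drives degradation and folding genes, and PERK (encoded by Eif2ak3) slows translation and favours the factor ATF4. ATF6 activation and XBP1 splicing do not need a change in the RNA level of the sensor, so an array of RNA levels reads these arms through their targets. Many targets answer to more than 1 arm, and the grouping used here serves description only.

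ATF6 and XBP1 act through short promoter sequences, so matches in the promoters of the listed genes are shown first. RefSeq promoters on build GRCr8, from 250 bases before to 50 bases after the start, were present for 28 of the 34 genes. The ER stress response element, ERSE (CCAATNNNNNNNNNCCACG, either strand), was found in the promoters of 8 genes, whereas 0.0657% of all 33469 rat promoters hold it. These genes were Hspa5, Hsp90b1, Calr, Canx, Creld2, Dnajc3, Derl3 and Xbp1, of which Xbp1 was not measured. Each site is printed 5′ to 3′ on the strand that reads CCAAT first, with up to 20 flanking bases on each side, and capitals mark the fixed bases of the element.
Hspa5, chr3:38452953-38453011, plus strand: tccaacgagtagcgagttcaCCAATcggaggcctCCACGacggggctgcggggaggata
Hsp90b1, distal site, chr7:23012431-23012489, minus strand: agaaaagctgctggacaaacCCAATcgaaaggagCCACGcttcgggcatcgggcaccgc
Hsp90b1, proximal site, chr7:23012327-23012385, plus strand: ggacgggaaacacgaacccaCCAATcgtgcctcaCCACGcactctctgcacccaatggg
Calr, chr19:40213117-40213173, minus strand: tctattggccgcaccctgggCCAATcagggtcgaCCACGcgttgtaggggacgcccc
Canx, chr10:35158049-35158107, minus strand: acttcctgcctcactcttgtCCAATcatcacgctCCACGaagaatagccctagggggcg
Creld2, chr7:121789219-121789277, minus strand: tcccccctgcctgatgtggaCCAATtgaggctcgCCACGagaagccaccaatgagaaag
Dnajc3, chr15:102432514-102432572, plus strand: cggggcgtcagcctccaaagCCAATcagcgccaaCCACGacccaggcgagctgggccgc
Derl3, chr20:12766581-12766639, plus strand: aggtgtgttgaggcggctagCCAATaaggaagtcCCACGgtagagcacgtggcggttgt
Xbp1, chr14:84604538-84604596, plus strand: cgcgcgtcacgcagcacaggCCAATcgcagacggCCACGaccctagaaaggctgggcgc

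The related element ERSE-II (ATTGG and CCACG with 1 base between them, either strand) was found in 3 of the 28 genes, Herpud1, Hyou1 and Dnajb11, against 0.0508% of all promoters. Those lying wholly upstream of the start are shown in the same way, because their values are set beside those of the ERSE genes below. In each of them the fixed CCACG is followed by T, so that it overlaps a match of the XBP1 core on the other strand.
Herpud1, chr19:10614801-10614851, minus strand: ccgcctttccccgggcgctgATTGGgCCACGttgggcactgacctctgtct
Hyou1, distal site, chr8:53602674-53602724, minus strand: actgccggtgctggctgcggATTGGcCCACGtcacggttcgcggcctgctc
Hyou1, proximal site, chr8:53602774-53602824, minus strand: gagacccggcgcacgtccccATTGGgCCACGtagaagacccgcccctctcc

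The XBP1 core ACGTG, searched on either strand, was found in 13 of 28 genes, where 19.3% of all promoters hold it, and the C/EBP-ATF core of ATF4 sites (TGATGNAA, either strand) in 2 genes, Herpud1 and Trib3, against 3.98%. A match is a description of these letters and not a measured binding site. The promoters of the listed genes had a median GC content of 62% over the upstream bases, against 51.2% for all promoters, and the shares were not adjusted for it.

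The arrays were of 1 colour, and levels are given as log2 intensity relative to each array's own 75th percentile, so that 0 is that percentile. Between 59.6% and 65.1% of non-control spots were well above background, and no spot was saturated. Arthritis 1 to 3 and triptolide 1 were on slide 1 and triptolide 2 and 3 on slide 2. The arrays differed in tissue makeup. The summed linear level of 8 tested skeletal muscle markers was 4.86, 3228 and 4.77 for arthritis 1, 2 and 3 and 21.3, 3.61 and 51.8 for triptolide 1, 2 and 3. All 10 synovial fibroblast markers were measured on every array. Their summed level was 939 in arthritis 2, against 1349 and 1366 in arthritis 1 and 3 and a range of 930 to 1043 with triptolide. Triptolide 2 was highest in nerve and Schwann cell, cartilage and endothelial markers, with mean levels 2.30, 1.84 and 0.97 above the mean over all 6 arrays. In bulk tissue, fewer cells of a type and less RNA per cell cannot be told apart.

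By limma with Benjamini-Hochberg adjustment over 25776 tested probes, 0 members passed an adjusted p of 0.05, as did 0 of all probes, with a lowest adjusted p of 0.994 for the members. At an unadjusted p under 0.05, 1 member was found, Derl3, against 3.24% of all tested probes (2.01% higher with triptolide and 1.23% lower). Derl3 was tested only because its probe was above background on the triptolide arrays, so that call gives no support, and 0 members were called with the filter set at all 6 arrays. The brightest probe of 25 genes had a higher mean with triptolide and that of 6 genes a lower one, where 53.9% of all tested probes were higher and 46.1% lower. With normexp background correction, an alternative to the scanner's own subtraction, 42.6% of all tested probes were higher and 23 of the 31 genes. Without Derl3, 24 of 30 were higher. The median log2 difference was 0.17 over the 31 genes, or 0.16 without Derl3, beside 0.023 over all tested probes. Of these differences 15 exceeded their own standard error (SE) and 2, those of Derl3 and Atf6, exceeded it by more than 2 times. Without arthritis 2, the array rich in muscle messenger, 19 of the 31 genes were higher and the median was 0.041, beside 45.7% of all tested probes and a median of -0.022. Triptolide 1 was the highest array for 14 of the 31 genes (45.2%, beside 18.4% of all tested probes). Without triptolide 1, 23 genes were higher and the median was 0.077, beside 53.1% of all tested probes and a median of 0.019. The groups did not overlap for 2 genes, Derl3 and Calr, both higher with triptolide, against 4.77% of tested probes (8.64% in either direction). Without Derl3, which was tested only through the triptolide arrays, this was 1 of 30 genes.

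**Figure D1:**
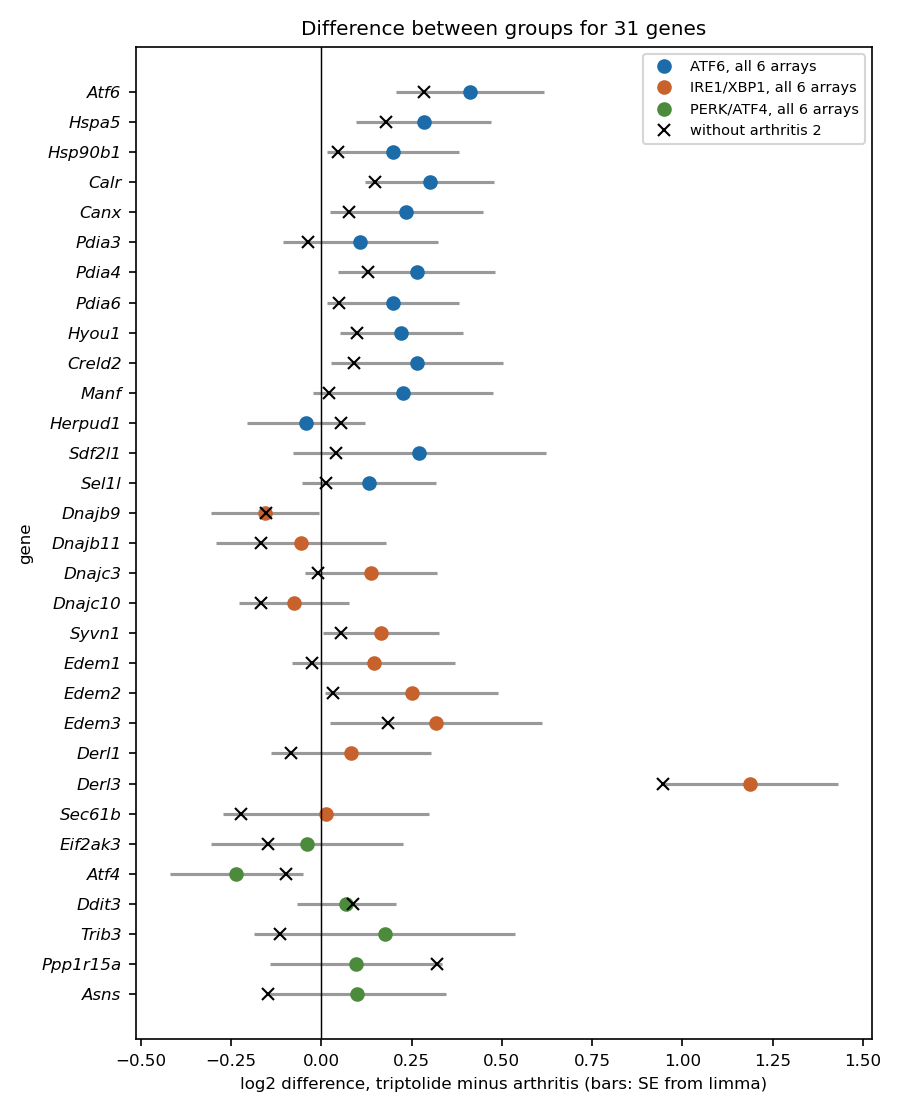
Log2 difference between triptolide and arthritis (x axis) for the brightest probe of each of 31 genes (y axis). Coloured points are from all 6 arrays with limma's SE as bars, and crosses are the same fit without arthritis 2; Derl3 lies apart at 1.19 and most crosses lie left of their points.

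Derl3 encodes a derlin, a membrane protein through which misfolded proteins leave the ER for degradation, and it is known for its high level in secretory cells. Its 1 probe lies at chr20:13165457-13165598 on the minus strand of rn4. Those coordinates span more than the 60 bases of the probe, so that the probe crosses an intron. It is shown here because it is the sole probe behind the largest difference among the genes.
Derl3 probe: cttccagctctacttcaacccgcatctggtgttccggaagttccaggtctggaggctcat

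The processed intensity of this probe was 11.4, 6.4 and 10.3 in arthritis 1, 2 and 3. It was 19.9, 22.9 and 30.3 in triptolide 1, 2 and 3. All triptolide arrays were thus brighter than all arthritis arrays, but every value was dim. On the scaled log2 axis the levels were -4.63, -5.52 and -4.96 in arthritis against -3.76, -3.90 and -3.89 with triptolide, with means of -5.04 ± 0.45 and -3.85 ± 0.075 (SD, n = 3 each) and a difference of 1.19 (SE 0.25). The probe stood well above background on all 3 triptolide arrays and on 0 of 3 arthritis arrays, which gives a bound of at least 1.90-fold higher with triptolide on the scanner's processed signal (limma adjusted p = 0.994). For that bound, an arthritis value under the dimmest signal called well above background on its array was replaced by that signal. Only arthritis 2 was replaced, at -4.73, and arthritis 1 and 3 entered at their measured levels. For those 2 arrays the bound is therefore no detection limit. As the probe was tested only through the triptolide arrays, the bound gives no support for a difference. The measured difference was 0.95 without arthritis 2 and 1.27 within slide 1, but 0.12 (SE 0.15) when background was corrected with normexp, so that the bound does not hold under that correction.

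Plasma cells are among the secretory cells known for a high Derl3 level, so the levels of that lineage are given beside it. Of 13 listed plasma and B cell markers 10 had a probe and 5 were tested. Mzb1, a chaperone-associated protein of plasma cells, was among those that did not pass the filter on dim probes, and Jchain, Ighm and Igkc had no probe under those names. The summed linear level of the 5 tested genes was 19.7 to 31.5 in arthritis and 32.1 to 40.8 with triptolide, and 4 of 5 had a higher mean with triptolide. Sdc1, a surface proteoglycan of plasma cells and other cells, differed by 0.38 (SE 0.24), and with levels of 4.26 to 5.32 it made up most of that sum, the other 4 genes lying at 0.0042 or lower. The mean level of the 5 genes, relative to the 6 arrays, overlapped between the groups, at 0.28, -0.78 and 0.14 in arthritis 1, 2 and 3 and 0.083, -0.15 and 0.42 in triptolide 1, 2 and 3. Tnfrsf17, the receptor of mature plasma cells, differed by -0.014 (SE 0.57). Their part in the Derl3 result was not tested.

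The upstream promoter of Derl3, chr20:12766466-12766715 on the minus strand of GRCr8, carries the ERSE and, beside it, an XBP1 core. It is shown whole, with the fixed bases of the element (here read on the opposite strand) and of the palindromic core in capitals.
Derl3 promoter: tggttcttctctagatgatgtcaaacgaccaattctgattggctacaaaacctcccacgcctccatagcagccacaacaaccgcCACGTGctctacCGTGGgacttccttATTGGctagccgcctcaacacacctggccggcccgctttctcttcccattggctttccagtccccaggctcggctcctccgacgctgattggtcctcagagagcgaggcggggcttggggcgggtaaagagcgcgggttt

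The ATF6 group held 14 genes, all tested, of which 13 had a higher mean with triptolide (53.9% of all tested probes) and 0 reached an unadjusted p under 0.05 by limma. Their median difference was 0.23, or 0.065 without arthritis 2 and 0.089 with array weights. Hspa5, which encodes BiP, the main Hsp70-type chaperone of the ER lumen and the protein that holds the sensors inactive, had levels of 6.07, 5.64 and 5.84 in arthritis 1, 2 and 3 and 6.23, 5.90 and 6.26 in triptolide 1, 2 and 3. Arthritis 1 lay above triptolide 2, so the groups overlapped. The means were 5.85 ± 0.22 and 6.13 ± 0.20 (SD, n = 3 each), a difference of 0.28 (SE 0.19) or 1.22-fold. With normexp background correction this difference was 0.66 (SE 0.23, limma adjusted p = 0.911). The probe lies at chr3:13787739-13787798 (rn4, plus strand). Hsp90b1, the Hsp90-type chaperone of the lumen, differed by 0.20 (SE 0.18) on its brighter probe and 0.31 (SE 0.20) on the other. Hyou1, which exchanges nucleotide on BiP, differed by 0.22 (SE 0.17), and a second, dim probe of it by -0.032 (SE 0.26).

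Calr encodes calreticulin, a lectin that folds glycoproteins in the lumen. Its levels were 4.74, 4.26 and 4.70 in arthritis 1, 2 and 3. They were 4.88, 4.82 and 4.90 in triptolide 1, 2 and 3. All triptolide values lay above all arthritis values, by a narrow margin over arthritis 1 and 3 and a wide one over arthritis 2. The means were 4.56 ± 0.26 and 4.87 ± 0.041 (SD, n = 3 each), and the difference was 0.30 (SE 0.18), or 0.15 without arthritis 2. With normexp it was 0.47 (SE 0.17, limma adjusted p = 0.911). Canx, the membrane-bound partner lectin, differed by 0.24 (SE 0.21) and 0.27 (SE 0.16) on its probes, and on the dimmer of them the groups did not overlap, though triptolide 2 and arthritis 1 were both at -0.63. The disulfide isomerase genes Pdia3, Pdia4 and Pdia6 differed by 0.11 (SE 0.21), 0.26 (SE 0.22) and 0.20 (SE 0.18). Pdia4 was highest in triptolide 2, at 1.54, and its other levels lay between 0.67 and 1.08, so that it differed by 0.13 without arthritis 2 and by -0.042 between arthritis 1 and 3 and triptolide 1 and 3.

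Atf6 itself, the sensor of this arm, had 2 probes that gave different values. The brighter crosses an intron at chr13:86673253-86687904 (rn4, minus strand) and is shown because it carries the larger value.
Atf6 probe: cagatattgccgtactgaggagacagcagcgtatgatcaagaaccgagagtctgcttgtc

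Its levels were 2.17, 1.80 and 2.20 in arthritis 1, 2 and 3 and 2.52, 2.70 and 2.18 in triptolide 1, 2 and 3. Triptolide 3 lay among the arthritis values and the other 2 above them. The means were 2.06 ± 0.22 and 2.47 ± 0.26 (SD, n = 3 each), a difference of 0.41 (SE 0.20, limma adjusted p = 0.994). The second Atf6 probe, at chr13:86542790-86542849, differed by 0.020 (SE 0.16). Of 10 genes with more than 1 probe, 9 had the same sign on all their probes, and the gap of 0.39 at Atf6 was the largest, the median gap being 0.12.

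The remaining genes of the ATF6 group overlapped between the groups. Sdf2l1, which keeps client proteins soluble together with BiP, stood at 3.74, 3.01 and 3.67 in arthritis 1, 2 and 3 and 4.13, 3.08 and 4.02 in triptolide 1, 2 and 3. It was low on arthritis 2 and triptolide 2 alike, and the groups differed by 0.27 (SE 0.35). Creld2 and Manf, secreted proteins induced by ER stress, differed by 0.26 (SE 0.24) and 0.23 (SE 0.25). Sel1l, the scaffold of the Syvn1 ubiquitin ligase, differed by 0.13 (SE 0.19). Herpud1, a membrane protein of the degradation machinery with an ERSE-II in its promoter, was the 1 gene of the group with a lower mean, by -0.044 (SE 0.16). Its levels were 3.52, 3.88 and 3.65 in arthritis 1, 2 and 3 and 3.52, 3.64 and 3.76 in triptolide 1, 2 and 3, and arthritis 2 was the highest of the 6 arrays on both of its probes. Several differences in this group were smaller without arthritis 2: Hspa5 stood at 0.18, Hyou1 at 0.099, Creld2 at 0.091, Canx at 0.076, Pdia6 at 0.049, Hsp90b1 at 0.045, Sdf2l1 at 0.041, Manf at 0.021, Sel1l at 0.013 and Pdia3 at -0.038. Herpud1 stood at 0.054.

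**Figure D2:**
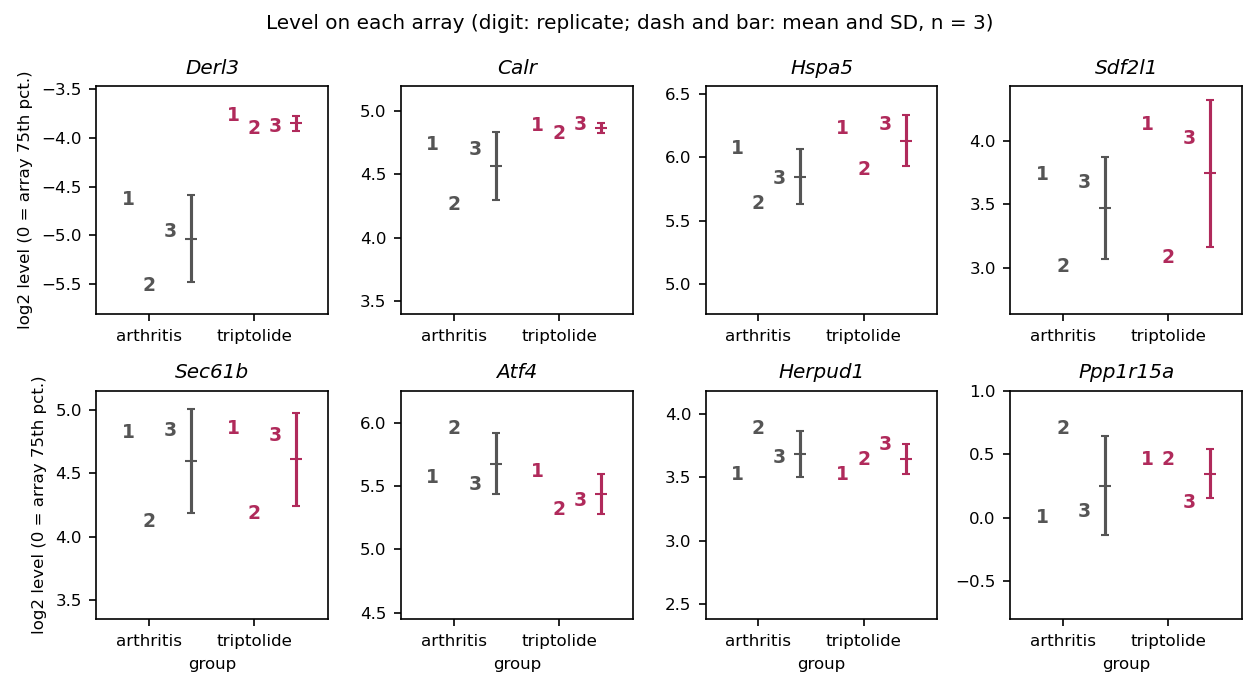
Log2 level relative to the array's 75th percentile (y axis) of 8 genes in each group (x axis); digits are the replicates and bars the mean and SD (n = 3). The groups are apart for Derl3 and Calr only, and arthritis 2 is lowest for Derl3, Calr, Hspa5, Sdf2l1 and Sec61b and highest for Atf4, Herpud1 and Ppp1r15a.

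Of 14 genes in the IRE1/XBP1 group 11 were measured, 8 with a higher and 3 with a lower mean with triptolide (53.9% of all tested probes were higher). Their median difference was 0.14. Without Derl3, 7 were higher and 3 lower, with a median of 0.11. Without arthritis 2 the median of the 11 genes was -0.026, beside -0.022 over all tested probes. Since Xbp1 and Ern1 had no probe here, this arm was read through its targets only. Among degradation genes, Edem1, Edem2 and Edem3, which trim mannose from misfolded glycoproteins, differed by 0.15 (SE 0.23), 0.25 (SE 0.24) and 0.32 (SE 0.29). The 3 probes of Edem1 ranged from 0.15 to 0.28. Edem3 was highest in triptolide 2, at -2.39, with its other levels between -3.54 and -2.96, and differed by -0.035 within slide 1. Syvn1, the ubiquitin ligase of ER-associated degradation, differed by 0.17 (SE 0.16) and Derl1, a second derlin, by 0.082 (SE 0.22). Without arthritis 2, Edem2 stood at 0.033, Syvn1 at 0.056, Edem1 at -0.026 and Derl1 at -0.083.

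The ER co-chaperones of the DnaJ family did not share a direction. Dnajc3, an inhibitor of PERK and co-chaperone of BiP, differed by 0.14 (SE 0.18). Dnajb9, a classical XBP1 target that feeds substrates to degradation, differed by -0.16 (SE 0.15) and -0.22 (SE 0.22) on its probes. Dnajb11 and Dnajc10, the latter a disulfide reductase, differed by -0.056 (SE 0.24) and -0.076 (SE 0.15). The second probe of Dnajc10 had levels of -0.27, -0.37 and -0.32 in arthritis 1, 2 and 3 and of -0.70, -0.62 and -0.38 in triptolide 1, 2 and 3. On that probe all triptolide values lay below the arthritis values (3.87% of tested probes did so), with a difference of -0.25 (SE 0.15, limma adjusted p = 0.994). Sec61b, a subunit of the channel through which nascent proteins enter the ER, stood at 4.83, 4.12 and 4.84 in arthritis 1, 2 and 3. With triptolide it stood at 4.85, 4.19 and 4.80 in replicates 1, 2 and 3. Arthritis 2 and triptolide 2 were the low arrays, the groups overlapped, and the difference was 0.014 (SE 0.29). Without arthritis 2 it was -0.22, and Dnajb11, Dnajc10 and Dnajc3 stood at -0.17, -0.17 and -0.0092.

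The 6 genes of the PERK/ATF4 group had a median difference of 0.083, or -0.11 without arthritis 2, beside 0.023 and -0.022 over all tested probes. Of their means 4 were higher and 2 lower (53.9% of all tested probes were higher), with 0 at an unadjusted p under 0.05 by limma. Atf4, the transcription factor of this arm, had the lowest difference of all 31 genes, -0.24 (SE 0.18), from means of 5.67 ± 0.24 and 5.44 ± 0.16 (SD, n = 3 each). Its levels were 5.56, 5.95 and 5.51 in arthritis 1, 2 and 3 and 5.61, 5.32 and 5.39 in triptolide 1, 2 and 3. Arthritis 2 was the highest, triptolide 1 lay above the other 2 arthritis arrays, and the difference was -0.10 without arthritis 2. ATF4 protein is made mainly by changed translation, which an RNA level does not show. Eif2ak3, which encodes PERK, differed by -0.041 (SE 0.27) on a dim probe, or -0.15 without arthritis 2. Ddit3, which encodes the death-promoting factor CHOP, had the smallest error of the 31 genes and differed by 0.069 (SE 0.14). Its 6 levels lay between 0.97 and 1.19.

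The targets downstream of ATF4 diverged among the arthritis arrays. Ppp1r15a, the phosphatase subunit that restores translation, stood at 0.0030, 0.70 and 0.051 in arthritis 1, 2 and 3 and at 0.46, 0.46 and 0.12 in triptolide 1, 2 and 3. Its arthritis mean was raised by arthritis 2, so that the difference was 0.097 (SE 0.24) over all arrays and 0.32 without that array. Asns, the asparagine synthetase gene, went the other way, at 1.68, 0.85 and 1.49 in arthritis 1, 2 and 3. It stood at 1.496, 1.30 and 1.51 in triptolide 1, 2 and 3, with a difference of 0.099 (SE 0.25) and -0.15 without arthritis 2. Trib3, a pseudokinase induced by ATF4 and CHOP, differed by 0.18 (SE 0.36), the widest error of the 31 genes, was highest in triptolide 1, at 1.08, and differed by -0.11 without arthritis 2.

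**Figure D3:**
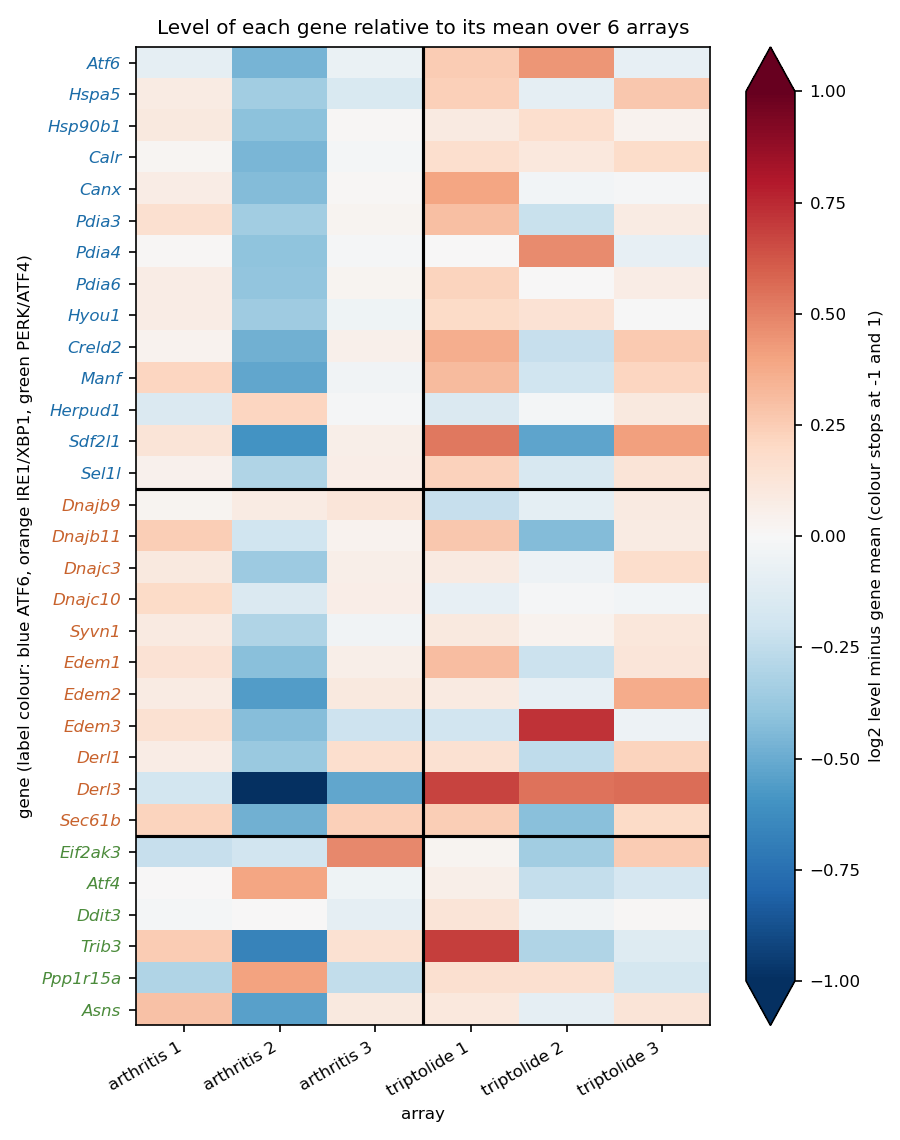
Log2 level of each of 31 genes (rows, by arm) on each array (columns) minus the gene's mean over all 6 arrays; red is above and blue below that mean. The column of arthritis 2 is blue for most ATF6 and IRE1/XBP1 genes and red for Herpud1, Atf4 and Ppp1r15a, and Derl3 and Calr are the rows in which the groups do not overlap.

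The distance of 1 array from its group was larger, in the median, than the difference between the groups. Arthritis 2 was the lowest of the 6 arrays for 24 of the 31 genes, or 77.4%, whereas it was the lowest for 37.3% of all tested probes. By arm, this held for 13 of 14 ATF6 genes, 9 of 11 IRE1/XBP1 genes and 2 of 6 PERK/ATF4 genes. Set against the mean of arthritis 1 and 3, arthritis 2 was lower for 26 genes, or 83.9%, with a median of -0.44, beside 66.3% and -0.19 over all tested probes. For 28 genes this distance was wider than the gap between arthritis 1 and 3 (90.3%, beside 73.5% of all tested probes). The shifts included -0.71 for Sec61b, -0.69 for Sdf2l1, -0.62 for Manf, -0.74 for Asns and -0.87 for Trib3. Going the other way were Ppp1r15a by 0.67, Atf4 by 0.41 and Herpud1 by 0.29. These are values of 1 array, with no replicate and no test.

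**Figure D4:**
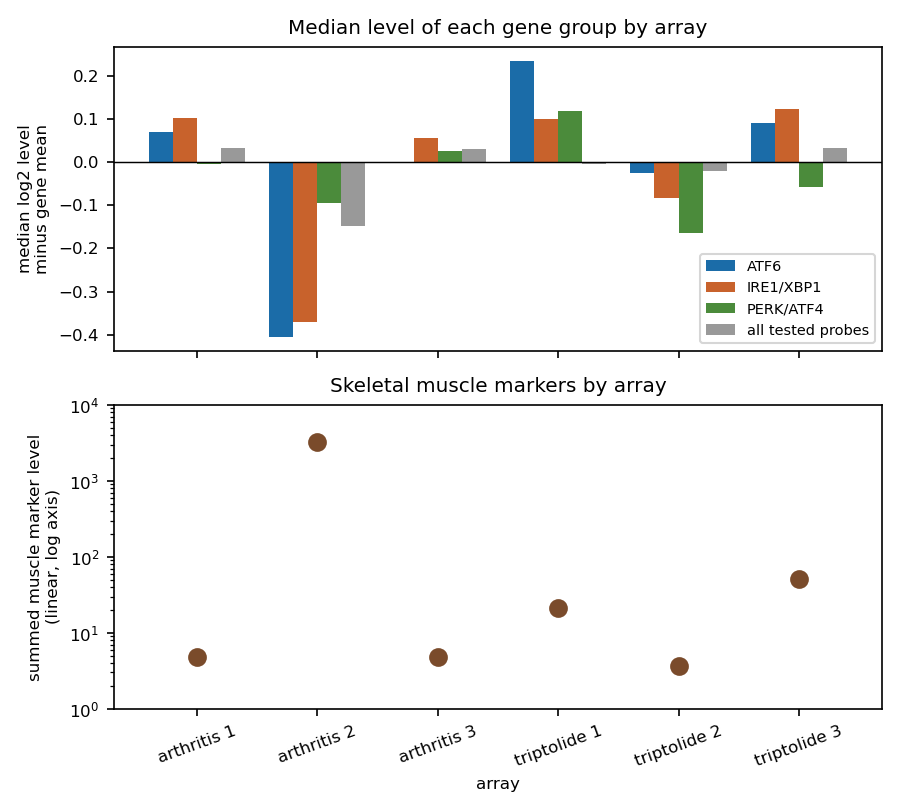
Upper panel, the median over genes of the log2 level minus the gene mean (y axis) on each array (x axis) for the 3 arms and all tested probes. Lower panel, the summed linear level of 8 skeletal muscle markers on a log axis; arthritis 2 is lowest in the upper panel for the ATF6 and IRE1/XBP1 groups and highest in the lower one, at 3228.

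Arthritis 2 and triptolide 2 were together the lowest arrays for 15 of the 31 genes, 48.4%, against 22.7% of all tested probes. These were Canx, Pdia3, Pdia6, Creld2, Manf, Sdf2l1, Sel1l, Dnajb11, Dnajc3, Edem1, Edem2, Derl1, Sec61b, Trib3 and Asns. The same arrays were the lowest pair in the mean level of T cell, macrophage, synovial fibroblast, plasma and B cell and neutrophil markers. Summed linear levels differed from this for 2 of these lists. That of the plasma and B cell markers, mostly Sdc1, was highest in triptolide 2, at 40.8. That of the neutrophil markers was lowest in arthritis 1, at 0.87, against 1.25 in both arthritis 2 and triptolide 2. The mean level of 7 T cell markers stood at -0.81 in arthritis 2 and -0.81 in triptolide 2, relative to their mean over the 6 arrays, and between 0.29 and 0.57 in the others. That of 8 macrophage markers stood at -0.46 and -0.50 in arthritis 2 and triptolide 2 and between 0.0027 and 0.45 elsewhere. That of the 10 fibroblast markers stood at -0.57 and -0.31 and between -0.016 and 0.46 elsewhere. For 5 tested neutrophil markers arthritis 2, triptolide 2 and arthritis 1 were alike, at -0.40, -0.40 and -0.39. The summed linear level of the macrophage markers was 191 to 333 in arthritis and 223 to 389 with triptolide, and that of the T cell markers 6.70 to 17.5 and 7.14 to 18.6. The part of these cell types in the levels of the 15 genes was not tested.

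Genes that carried an ERSE in their promoter were set beside the others. The 7 measured ERSE genes all had a higher mean with triptolide, by 0.14 to 1.19 with a median of 0.26, and all 7 were lowest on arthritis 2. Derl3, at 1.19, is counted in every ERSE figure here and among the genes with the XBP1 core. It was tested only through the triptolide arrays, so its place in these counts gives no support. The other ERSE genes ranged from 0.14 (Dnajc3) to 0.30 (Calr). Among the 19 measured genes with a promoter but no ERSE, 13 were higher, the median was 0.099, and 12 were lowest on arthritis 2. Over all tested probes 53.9% were higher and 37.3% lowest on arthritis 2. Without arthritis 2, 6 of the 7 ERSE genes were higher with a median of 0.091, and 10 of the other 19 with a median of 0.013. The 3 ERSE-II genes had differences of 0.22 for Hyou1, -0.044 for Herpud1 and -0.056 for Dnajb11, of which 2 were higher without arthritis 2 (median 0.054). Genes with and without the XBP1 core had medians of 0.14 and 0.17, or 0.054 and 0.041 without arthritis 2. These are counts on few genes that share arrays, and no test was made of them.

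Further genes of the pathway were taken from 5 lists. By limma 0 of their tested genes passed an adjusted or an unadjusted p of 0.05, against 3.24% of all tested probes at the latter. Beside the counts of all 5 lists, 53.9% of all tested probes were higher (median 0.023), and 45.7% (median -0.022) without arthritis 2. Of 12 listed sensors and processing factors 11 were tested and 7 were higher, with a median of 0.072, or 5 and -0.043 without arthritis 2. Atf6b, a relative of Atf6, differed by 0.24 (SE 0.18) and Creb3, an ER-bound factor cleaved like Atf6, by 0.13 (SE 0.13). Of 21 translocation genes 19 were tested and 13 were higher (median 0.052), but 6 (median -0.048) without arthritis 2. Sec11c, of the signal peptidase, differed by 0.30 (SE 0.23) and Tram1, of the translocation channel, by 0.24 (SE 0.23). Both were lowest on arthritis 2. Among 24 genes of glycosylation and disulfide folding 22 were tested and 17 were higher (median 0.069), but 7 (median -0.099) without arthritis 2. The ER oxidases Ero1a and Ero1b differed by 0.39 (SE 0.28) and 0.38 (SE 0.29), and both were lowest on arthritis 2.

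Of 18 further degradation genes 17 were tested and 8 were higher (median -0.011), and 11 (median 0.028) without arthritis 2. Ube2g2, a ubiquitin-conjugating enzyme, differed by -0.34 (SE 0.28), with arthritis 2 at 0.72 and its other levels between -0.46 and -0.044. Selenos, a selenoprotein of the degradation complex, differed by 0.24 (SE 0.22) and was lowest on arthritis 2, at 2.37. Of 34 other genes of eIF2alpha phosphorylation and ATF4 targets 32 were tested and 19 were higher (median 0.078), and 16 (median -0.012) without arthritis 2. Chac1, a glutathione-degrading enzyme and ATF4 target, stood at -2.14, 1.40 and -2.31 in arthritis 1, 2 and 3 and at -2.14, -2.75 and -2.39 in triptolide 1, 2 and 3. The group difference of -1.41 (SE 0.98) thus rested on arthritis 2. Atf4 and Ppp1r15a were also highest on that array, but Asns, Trib3 and several other genes of this list were lowest on it. Nupr1, a stress-induced chromatin protein, differed by -0.23 (SE 0.16).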

How the data were processed

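Per the file headers, the authors scanned 1-colour Cy3 arrays (0.5 ug of RNA each, per the labels) and read them with Feature Extraction 10.7.3.1 (version 9.1 in the submitters' processing notes). The deposited intensity values are background-subtracted and spatially detrended within each array, on probes placed on rn4. Here control and outlier spots were left out, log2 was taken, each array's 75th percentile was subtracted, and spots of a probe were averaged. Probes well above background on at least 3 of 6 arrays (by the majority of their spots) were tested with limma 3.58.1 in R 4.3.3 (triptolide minus arthritis, Benjamini-Hochberg), a script first tested on simulated data. A gene's brightest probe stands for it. The genes named are the members and, of each pathway list, the 2 with the smallest unadjusted p. The members and lists were chosen with earlier results of these data known. The deposited table of 167 processed values held 0 probes of these genes and was not used. The exon position of probes was not analysed here. The number of arrays limits the precision. Alternatives were background correction, normalization, filters, slide, replicate number, array weights, a muscle covariate and leaving out arrays.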

Additional observations from a re-analysis of the deposited data

How the results depend on the processing

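Over 19 alternatives the differences of the 31 genes kept their sign in 542 of 588 values, and 17 genes never changed sign. The cause of the changes was not tested. These counts overstate how stable the signs were, because several alternatives could not change a sign. The changed filters, the replicate block and the matching by name or accession left the difference of every fitted gene unchanged. The slide block and the fit within a slide gave identical differences. Averaging probes could alter only genes with several probes. The slide, which holds triptolide 2 and 3 apart, and the mixed makeup of arthritis 2 limit all values, as do dim probes such as those of Derl3, Eif2ak3 and Edem3.

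With normexp, 2 genes (Hspa5 and Calr) reached an unadjusted p under 0.05, beside 943 of all probes, 3 sensors of the pathway list were higher (median -0.011), and Edem3 and Sec61b stood at -0.054 and -0.057. With normexp and quantile normalization, 3 genes reached it and 4 did not overlap between groups, beside 1252 and 2974 of all probes, 3 sensors were higher (median -0.038), and Eif2ak3 and Sec61b stood at 0.011 and -0.062. Without a filter 41012 probes were fitted. Of these, 1758 reached an unadjusted p under 0.05 by limma and 4174 did not overlap, beside 1 and 2 of the genes. With the filter set at all 6 arrays, 0 genes reached it and 1 did not overlap, since Derl3 was left out. Of the 22540 probes tested there, 650 reached it and 1916 did not overlap.

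A block for slide and the fit on slide 1 alone gave the same values here: the sensors had a median of 0.18, Eif2ak3 stood at 0.010, Dnajb11 at 0.24 and Edem3 at -0.035. Within slide 1, 1297 of all probes reached an unadjusted p under 0.05, and 13573 of all probes and 20 of the genes did not overlap, with 1 triptolide array left. With array weights 1 of all probes passed an adjusted p of 0.05 and 4346 an unadjusted one, as did 2 of the genes. There 10 glycosylation genes were higher, the eIF2alpha list had a median of -0.016, and Eif2ak3, Pdia4, Herpud1, Edem3, Trib3, Asns and Sec61b stood at 0.16, -0.037, 0.14, -0.029, -0.20, -0.068 and -0.025. With the muscle level as a covariate 1409 of all probes reached an unadjusted p under 0.05 and Sec61b stood at -0.010.

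Chosen after seeing the data, arthritis 1 and 3 were set against triptolide 1 and 3. Then 24 of all probes passed an adjusted p of 0.05, 2881 an unadjusted one and 11616 did not overlap, against 0, 2 and 12 of the genes. In that comparison 9 glycosylation genes were higher, the degradation list had a median of 0.073, and Eif2ak3, Pdia4, Herpud1, Dnajb11, Edem3, Asns and Sec61b stood at 0.016, -0.042, 0.054, 0.037, -0.096, -0.078 and -0.011. A search of the gene's own strand, also chosen after seeing the data, found the ERSE in 5 genes, the XBP1 core in 7 and the C/EBP-ATF core in 0.

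Leaving out 1 array at a time gave 619 to 1658 of all probes at an unadjusted p under 0.05 and 4090 to 7217 without overlap, and 1 to 2 and 3 to 10 of the genes. The number of genes higher ran from 19 (without arthritis 2) to 27 (without triptolide 2). The medians ran from 0.065 to 0.33 for the ATF6 group, -0.026 to 0.22 for the IRE1/XBP1 group, -0.11 to 0.11 for the PERK/ATF4 group, -0.043 to 0.082 for the sensors and -0.017 to 0.10 for the eIF2alpha list, with 6 to 18 translocation and 7 to 18 glycosylation genes higher. Single genes that changed sign ran from -0.18 to 0.19 for Eif2ak3, -0.038 to 0.25 for Pdia3, -0.13 to 0.054 for Herpud1, -0.21 to 0.15 for Dnajb11, -0.0092 to 0.22 for Dnajc3, -0.17 to 6.0e-05 for Dnajc10 and -0.026 to 0.29 for Edem1. The others ran from -0.083 to 0.23 for Derl1, -0.13 to 0.37 for Trib3, -0.028 to 0.32 for Ppp1r15a, -0.15 to 0.27 for Asns and -0.22 to 0.23 for Sec61b.

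Deviations of same-numbered arrays from their group means had r = -0.16, -0.13 and 0.00079 across all tested probes. Differently numbered arrays ranged from -0.10 to 0.16. With 3 arrays per group that differ in tissue makeup, these values cannot settle whether the numbers pair samples, and the labels do not say. With the replicate block, which by design leaves the differences unchanged, 25 genes were higher with a median of 0.17. By limma 1 gene reached an unadjusted p under 0.05 there, and 1066 of all probes did. The deposited processed table gave no value for these genes.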
